A study of Mus musculus with 5 samples.

Results

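The genes described here are 53 axon guidance genes, drawn from 21938 protein-coding genes of the mouse. They are listed ligands and receptors of the Robo and Slit, netrin, Eph and ephrin, semaphorin, plexin and neuropilin families, listed by name, with no measured value in the rule that defines them. Binding of the transcription factor NEUROD2 was measured by ChIP-Seq, in which DNA fragments bound by a protein are recovered with an antibody and sequenced. The tissue was cerebral cortex dissected from untreated wild-type BALB/c pups at postnatal day 0, pooled over littermates of either sex. Each of 3 antibodies against NEUROD2 gave 1 library, namely ab168932 (called antibody 1), ab104430 (antibody 2) and ab109406 (antibody 3). A library made with an antibody against GFP, a protein foreign to these mice, was the control of the peak calling, and the input DNA library entered no count. The methods describe 1 pool of tissue divided among the antibodies but also speak of independent experiments, so the 3 antibodies are the only replicates, the spread between them may be technical, and no condition was varied.

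For each gene, the peaks of each antibody that overlapped the gene body plus 10 kb on either side were counted. A shared site is an entry of the deposited list of 2071 regions where the peaks of all 3 antibodies overlap. The score of a peak is minus 10 times the log10 of the p given by the peak caller MACS, and no listed peak scored below 50. The score of a shared site is the sum over its peaks. Scores were not scaled between antibodies and the read depth behind them is unknown, so they rank peaks within a list and do not measure occupancy.

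Growing axons are steered by secreted and membrane-bound cues that are read by receptors on the growth cone. Slits repel axons through Robo receptors, and netrins attract them through Dcc or repel them through Unc5 receptors. Ephrins act on contact through the Eph receptor tyrosine kinases, and semaphorins act through plexins, often with a neuropilin as coreceptor. NEUROD2 is a basic helix-loop-helix factor of excitatory cortical neurons, and factors of this class bind E-boxes, short motifs with the letters CANNTG.

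The reference sequences at 8 of the shared sites show how unevenly this motif was spread among them. Each is the central 200 bp of a site on the plus strand of GRCm38 (mm10), a C57BL/6J reference, whereas the mice were BALB/c. Capitals mark each CANNTG, a pattern that reads the same on both strands. Sema5a, Unc5b, Robo1 and the intronic site of Plxna4 are the highest scoring sites of their families with printable sequence, Sema7a and Ephb2 give promoters, and Ephb2 intron 3 and Nrp2 were added after their values were seen because they held the most E-boxes.
Sema5a intron 1, chr15:32324199-32324398: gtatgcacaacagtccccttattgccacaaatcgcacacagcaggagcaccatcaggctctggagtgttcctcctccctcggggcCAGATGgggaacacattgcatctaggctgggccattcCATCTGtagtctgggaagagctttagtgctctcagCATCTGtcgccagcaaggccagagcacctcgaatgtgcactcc
Ephb2 intron 3, chr4:136698836-136699035: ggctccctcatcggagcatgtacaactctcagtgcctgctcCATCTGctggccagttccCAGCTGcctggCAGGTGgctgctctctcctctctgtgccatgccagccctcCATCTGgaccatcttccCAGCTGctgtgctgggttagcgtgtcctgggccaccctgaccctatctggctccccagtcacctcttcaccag
Nrp2 intron 13, chr1:62784082-62784281: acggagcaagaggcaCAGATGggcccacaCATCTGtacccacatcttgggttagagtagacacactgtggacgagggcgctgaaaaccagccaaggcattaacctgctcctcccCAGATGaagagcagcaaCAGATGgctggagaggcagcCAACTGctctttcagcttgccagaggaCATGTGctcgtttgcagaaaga
Unc5b intron 1, chr10:60801435-60801634: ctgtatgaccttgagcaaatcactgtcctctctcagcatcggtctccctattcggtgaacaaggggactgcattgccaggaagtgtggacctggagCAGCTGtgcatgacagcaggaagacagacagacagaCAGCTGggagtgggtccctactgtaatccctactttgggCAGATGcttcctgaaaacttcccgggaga
Robo1 intron 2, chr16:72795083-72795282: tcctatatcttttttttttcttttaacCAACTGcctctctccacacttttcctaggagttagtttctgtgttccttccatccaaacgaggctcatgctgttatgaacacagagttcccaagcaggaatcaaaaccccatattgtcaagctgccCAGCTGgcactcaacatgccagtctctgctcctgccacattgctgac
Sema7a promoter, chr9:57939877-57940076: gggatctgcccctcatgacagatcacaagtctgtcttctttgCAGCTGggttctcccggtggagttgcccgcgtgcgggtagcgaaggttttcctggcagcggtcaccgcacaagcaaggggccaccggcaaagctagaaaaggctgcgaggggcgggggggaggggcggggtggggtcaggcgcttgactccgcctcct
Ephb2 promoter, chr4:136835190-136835389: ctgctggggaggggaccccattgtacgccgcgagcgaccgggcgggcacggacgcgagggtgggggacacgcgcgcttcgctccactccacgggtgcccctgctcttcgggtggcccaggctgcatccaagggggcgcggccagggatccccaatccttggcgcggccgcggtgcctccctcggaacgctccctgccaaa
Plxna4 intron 9, chr6:32224327-32224526: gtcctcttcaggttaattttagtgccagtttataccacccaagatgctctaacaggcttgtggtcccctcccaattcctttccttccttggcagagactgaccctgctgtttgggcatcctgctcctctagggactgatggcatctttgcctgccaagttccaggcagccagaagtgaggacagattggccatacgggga

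Sema5a held 3 E-boxes within 78 bp, all of them CAGATG or its reverse complement CATCTG. The intronic site of Ephb2 held 5 within 92 bp, of which 2 were CATCTG, 2 were CAGCTG and 1 was CAGGTG. Nrp2 held 6 within 169 bp, although its site ranked only 1902 of 2071 by score. Neither the promoter of Ephb2 nor the intronic site of Plxna4 held any.

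Shared sites were found at 11 of the 53 guidance genes (20.8%, 95% Wilson interval 12.0 to 33.5), against 7.49% of all protein-coding genes. These were Robo1, Slit1, Unc5b, Ephb1, Ephb2, Sema5a, Sema5b, Sema6d, Sema7a, Nrp2 and Plxna4, and together they held 18 sites. When every peak had to score at least 100, the count fell to 6 genes, beside 4.93 from genes of similar length, and Robo1, Slit1, Unc5b, Sema5b and Nrp2 dropped out. Antibody 1 had a peak at 26 genes (49.1%, 36.1 to 62.1, against 15.4% of all genes). For antibody 2 the number was 34 (64.2%, 50.7 to 75.7, against 33.2%), and for antibody 3 it was 15 (28.3%, 18 to 41.6, against 11.1%). At a score of at least 100 these numbers were 11, 24 and 6, with no share of other genes at that threshold to set beside them. The intervals cover counting error over genes, and genes of a family are not independent.

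Guidance genes are long, with a median of 143 kb against 17.4 kb for all protein-coding genes, and longer genes more often held a shared site. Each gene was therefore set beside the 200 other protein-coding genes closest to it in rank of length. For the longest genes this match is loose, since Dcc (1097 kb) and Epha6 (952 kb) both stand beside genes of 530 to 4435 kb. At the share found among those genes, 9.19 of the 53 would have carried a shared site (17.3%), which lies inside the interval of the observed share. In a window of 50 kb, 12 genes carried a shared site, beside 12.5 from genes of similar length. With sites defined by antibodies 1 and 2 alone, 21 genes had one (39.6%, 27.6 to 53.1), beside 14.5 (27.3%), a share just below the interval. The corresponding numbers were 17.0 for antibody 1 (32.0%), 26.9 for antibody 2 (50.8%) and 12.6 for antibody 3 (23.7%). The observed counts were above these numbers for every antibody. The share in genes of similar length lay below the lower bound of the interval for antibody 1, by a small margin inside it for antibody 2, and inside it for antibody 3. No peak of any antibody was found at 14 genes (26.4%, 16.4 to 39.6), where genes of similar length would have given 24.1 (45.6%) and the share over all protein-coding genes was 64.8%.

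**Figure D1:**
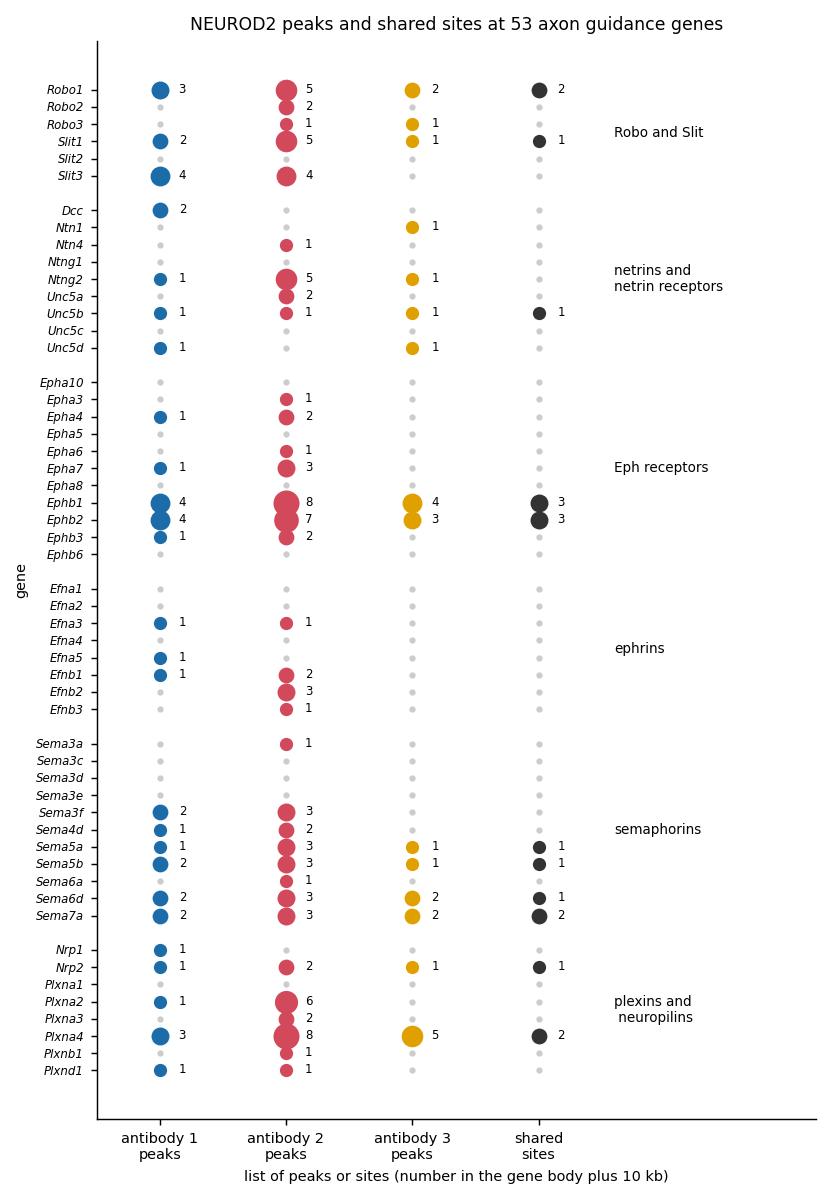
Number of NEUROD2 peaks of each antibody and of shared sites in the gene body plus 10 kb of each of the 53 guidance genes, grouped by family; larger points mean more peaks, the number stands beside each point, and small grey points mean 0. The ephrins hold no peak of antibody 3 (11.1% of all protein-coding genes hold one), and Ephb1 and Plxna4 hold the most peaks of antibody 2, with 8 each.

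The genes with a site were spread over all length classes. Of the 18 genes under 50 kb, only Sema7a had one (5.56%, against 5.45% of the 16931 genes of that length). Between 50 and 200 kb, 5 of 16 genes had one (31.2%, Wilson interval 14.2 to 55.6, against 11.1%). Over 200 kb it was 5 of 19 (26.3%, 11.8 to 48.8, against 27.6%). The genes with a site in the intermediate class were Unc5b, Nrp2, Sema5b, Slit1 and Ephb2. Set beside the genes closest in length to each, the shares were 5.67%, 14.2% and 31.1% in the 3 classes, so that the share of the intermediate class was level with the lower bound of its interval and the others lay inside theirs.

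Among the Robo and Slit genes, 2 of 6 had a shared site, beside 1.56 at the share of genes of similar length. Robo1, a receptor that mediates repulsion by Slits, held 2 sites in intron 2 of transcript ENSMUST00000232205. The site at chr16:72794914-72795451 had a score of 563.6, with 259.35 for antibody 1, 230.45 for antibody 2 and 73.8 for antibody 3. Antibody 1 was the highest here, which was so at only 3 of the 18 sites. The other Robo1 site (chr16:72888201-72888579), 92.8 kb further on, had a score of 425.59.

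Slit1, a secreted repellent, had a site in intron 4 (chr19:41697397-41697792) with a score of 462.71. A region of antibodies 1 and 2 lay near it in the same gene, with scores of 132.95 and 236.12. Slit3, another ligand of the Robo receptors, is 587 kb long and held 4 peaks of antibody 1 and 4 of antibody 2 but none of antibody 3. At Slit3 the peaks of the former antibodies overlapped in 2 regions, whose scores were 75.15 and 207.17 in the first and 88.24 and 129.34 in the second. At Robo3, a divergent receptor of commissural axons, antibodies 2 and 3 overlapped 630 bp from a TSS with scores of 69.23 and 76.91. Robo2 had peaks of antibody 2 alone, the higher with 124.29. Slit2 had no peak, although it is 325 kb long and only 26.0% of genes of its length had none.

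Apart from the ephrins, the netrins and their receptors held the fewest sites for their length. Of 9 genes only Unc5b had a shared site, where genes of similar length would have given 1.97 genes and 3.07 sites. The density of 0.0326 sites per 100 kb of gene and flank was the lowest of the 5 families with a site, beside 0.14 for all guidance genes and 0.131 for all protein-coding genes. Unc5b, a netrin receptor that mediates repulsion and is also known from blood vessels, had its site in intron 1 (chr10:60801346-60801723), with a score of 258.28 and rank 1952 of 2071. The antibodies gave 69.15, 119.66 and 69.47 there, which placed the site at 1892, 1892 and 1568 among the shared sites.

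Ntng2 encodes netrin-G2, a membrane-anchored relative of the netrins. It was the only gene with peaks of all 3 antibodies that did not form a shared site. Antibodies 1 and 2 overlapped in its body with scores of 56.77 and 75.72, and antibodies 2 and 3 overlapped elsewhere in its window with 225.5 and 95.59. Unc5d had a peak of antibody 1 with a score of 55.3 and a separate peak of antibody 3 with 52.63. Unc5a had peaks of antibody 2 alone, which lay 358 and 405 bp from a TSS and had scores of 212.71 and 186.33.

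The remaining genes of this family gave little or nothing. Dcc, the main netrin receptor for attraction, is the longest guidance gene (1097 kb) and had 2 peaks of antibody 1, the higher with a score of 68.28, and none of the others. Ntn1 had a peak of antibody 3 with 54.93, and Ntn4 had a peak of antibody 2 with 53.54. Ntng1 and Unc5c, with 364 and 370 kb, had no peak of any antibody, as did 26.5% of the genes closest to either in length.

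The Eph receptors held the most sites of any family, but in few genes. Ephb1 and Ephb2 had 3 sites each, and the other 9 receptors had none. At the shares of genes of similar length, 2.15 genes and 3.26 sites would be found. Among the 200 genes closest in length, 2.5% held as many sites as Ephb1 or more, and 3.0% as many as Ephb2 or more.

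Ephb1 is known for sending retinal axons to the same side of the brain. It held the highest scoring site of all guidance genes (chr9:102038905-102039863), with a score of 2641.62 and rank 63 of 2071. Antibody 1 gave 912.61, antibody 2 gave 1266.55 and antibody 3 gave 462.46. Every antibody ranked it among its 100 highest shared sites. It lies in intron 5 of transcript ENSMUST00000035129, which has 16 exons, and in the last exon of a shorter coding transcript of 5 exons.

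The other sites of Ephb1 were far weaker by score. The site at chr9:102183838-102184357 in intron 3 had a score of 322.9. The site at its start, chr9:102354264-102354831, lies in exon 1 with the midpoint 146 bp from the TSS, and also overlaps the noncoding gene Gm26846. Its score of 231.99 was the lowest of the 18 sites, with 90.78, 80.41 and 60.8 for antibodies 1, 2 and 3. The 3 sites are separated by 144 and 170 kb. The highest score of the gene thus lay 315309 bp from its start, and the lowest at the start.

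Ephb2, a receptor with roles in commissural axons and in excitatory synapses, also had its highest score inside the gene. Its site at chr4:136698528-136699342 in intron 3 scored 1348.62 (rank 260), with 498.93, 616.17 and 233.52 for antibodies 1, 2 and 3. The promoter site (chr4:136834766-136835812), 554 bp from a TSS, scored 601.02, with 96.42, 370.05 and 134.55. A site at chr4:136741679-136742126, also in intron 3, scored 350.32. Among the shared sites, antibodies 1, 2 and 3 ranked the highest of these at 212, 302 and 297, and the promoter at 1653, 768 and 735.

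Of the other Eph receptors, Epha4, Epha7 and Ephb3 had peaks of antibodies 1 and 2 that overlapped. Epha4, a receptor for ephrins of both classes, gave 125.71 and 108.6 at 1145 bp from a TSS. Epha7 gave 53.8 and 239.83 inside the gene. Ephb3 gave 75.03 and 226.37 at 105 bp from a TSS. Antibody 1 was the higher of the pair at Epha4 only. Epha3 (70.53) and Epha6 (51.16) had a peak of antibody 2 alone, and Epha5, Epha8, Epha10 and Ephb6 had no peak. Epha5 is the longest of these with 363 kb, and 26.5% of genes of its length had no peak.

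None of the 8 ephrin genes had a shared site (0%, Wilson interval 0 to 32.4). Most are short, with a median of 9.97 kb, and genes of their length would have given only 0.495 genes with a site, so that an absence in so few genes was within what such genes give. Antibody 3 had no peak at any of them, where only 11.1% of all protein-coding genes had one. Efna3 had overlapping peaks of antibodies 1 and 2 with scores of 69.8 and 108.33, 359 bp from a TSS, and Efnb1 had them with 64.62 and 139.77 inside the gene. Efnb2 had 3 peaks and Efnb3 had 1 peak of antibody 2, with highest scores of 88.21 and 97.11. Efna5 had a peak of antibody 1 with 52.95, and Efna1, Efna2 and Efna4 had none.

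The semaphorins had the most genes with a site, 4 of 11 (36.4%, Wilson interval 15.2 to 64.6), beside 1.97 at the share of genes of similar length. That share lay inside the interval. The genes were Sema5a, Sema5b, Sema6d and Sema7a, whereas none of the 5 listed class 3 semaphorins, which are secreted and mostly act through neuropilins, had one. Sema3b, a class 3 semaphorin outside the 53 genes, had a shared site with a score of 503.33. Among genes of similar length, 5.5 to 33.0% had a site, depending on which of the 5 listed genes they were set beside.

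Sema5a, a transmembrane semaphorin with thrombospondin repeats, had the second highest site of the guidance genes, in intron 1 (chr15:32324042-32324554). Its score was 2101.68 (rank 111), with 580.14 for antibody 1, 1066.57 for antibody 2 and 454.97 for antibody 3. Antibodies 2 and 3 placed it among their 100 highest shared sites, at ranks 92 and 83, and antibody 1 at rank 170. Its closest relative Sema5b had a site in its last exon (chr16:35664011-35664372), with a score of only 259.93. There antibody 1 gave 110.98, antibody 2 gave 97.78 and antibody 3 gave 51.17, barely above the lowest value listed.

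Sema6d, a transmembrane semaphorin that signals through plexins of the A class, had a site in intron 5 (chr2:124524153-124524803) with a score of 1087.88 (rank 368). The antibodies gave 374.85, 513.12 and 199.91. Sema7a, a membrane-anchored semaphorin known for promoting axon growth, is only 22.8 kb long and had 2 sites. Among the 200 genes closest in length, 0.5% had as many.

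The site at the Sema7a promoter (chr9:57939286-57940667), with the midpoint 136 bp upstream of the TSS, scored 604.85. Antibody 2 gave 426.39 there, against 84.84 for antibody 1 and 93.62 for antibody 3. The other Sema7a site (chr9:57933145-57933602) lay in intergenic sequence 6739 bp upstream of the TSS and scored 493.58, with 142.25, 250.7 and 100.63. Antibody 2 was the highest at both sites.

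Among the other semaphorins, Sema3f, a ligand of Nrp2, had overlapping peaks of antibodies 1 and 2 in a pair of regions. Their scores were 50.05 and 126.78 at 187 bp from a TSS, and 92.24 and 112.29 at 1006 bp from another. Sema4d, a ligand of Plxnb1, had peaks of antibody 1 (63.25) and antibody 2 (76.17) that did not overlap. Sema3a (73.04) and Sema6a (69.54) had a peak of antibody 2 alone. Sema3c, Sema3d and Sema3e had no peak of any antibody.

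Of the plexins and neuropilins, 2 of 8 had a site, beside 1.05 at the share of genes of similar length, and their density of 0.252 sites per 100 kb was the highest of the families. Plxna4 transduces signals of class 3 and class 6 semaphorins. It had a site at chr6:32224082-32224771 with a score of 1196.69 (rank 314), made up of 397.3, 522.57 over 2 peaks, and 276.82 for antibodies 1, 2 and 3. In coding transcript ENSMUST00000115096 it lies in intron 9, and its midpoint is 773 bp from the start of a transcript annotated as a retained intron.

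The site at the start of Plxna4 (chr6:32586964-32587962) scored 554.75, with 95.39, 339.16 and 120.2 over 2 peaks. Its midpoint lies in exon 1, 729 bp from the TSS and 362 kb from the other site. Next to it, 3 bp from the TSS, antibodies 2 and 3 overlapped without antibody 1, with 125.11 and 58.72. Nrp2, the coreceptor for Sema3f, had a site in intron 13 (chr1:62784029-62784334) with a score of 282.4, where the antibodies gave 54.73, 149.83 and 77.84.

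Plxna2 had overlapping peaks of antibodies 1 and 2 with low scores, 52.64 and 67.37, and 6 peaks of antibody 2 in all. Plxnd1, a receptor for Sema3e, had overlapping peaks with 131.64 and 146.99, 1165 bp from a TSS. Plxna3 and Plxnb1 had peaks of antibody 2 alone (up to 167.39 and 76.68), Nrp1 had a peak of antibody 1 alone (57.62), and Plxna1 had none.

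**Figure D2:**
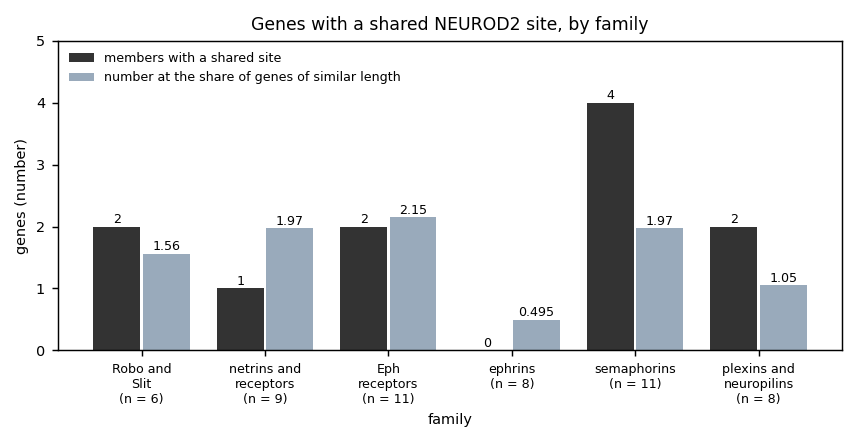
Number of genes with a shared NEUROD2 site in each family (dark bars) and the number at the share of the 200 genes closest in length to each gene (light bars). The semaphorins stand 4 against 1.97, the netrins and their receptors 1 against 1.97, and the ephrins 0 against 0.495.

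The families were too small for these differences to stand apart, since each family's 95% interval held the share of genes of similar length. Receptors and ligands did not separate either. Of 27 receptor genes 6 had a site (22.2%, Wilson interval 10.6 to 40.8, beside 5.21 from genes of similar length). Of 26 ligand genes it was 5 (19.2%, 8.51 to 37.9, beside 3.98). The receptors held 12 sites and the ligands 6, with 0.157 and 0.116 sites per 100 kb.

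By score, the 18 sites were spread over the whole list. The lowest score was 231.99, the median 524.165 and the highest 2641.62, beside a median of 573.06 over all shared sites. Of the 18 sites 7 were above that median, 5 were above the upper quartile of all sites (898.52) and 6 were below the lower quartile (394.88). The median rank was 1174.5 of 2071 by the deposited score, and 1297.0, 1239.5 and 1164.5 by antibodies 1, 2 and 3 alone. The 5 sites above the upper quartile were the highest of Ephb1, Sema5a, Ephb2, Plxna4 and Sema6d. By definition of the quartiles, sites taken evenly from the list would give counts close to these in each range.

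Antibody 2 gave the highest score at 15 of the sites and antibody 1 at the other 3, which were the first Robo1 site and the sites in Sema5b and at the start of Ephb1. Antibody 3 was the lowest at 12 and antibody 1 at 6. Over all shared sites antibody 2 was the highest at 84.9% and antibody 1 at 13.9%, and antibody 3 was the lowest at 81.5% and antibody 1 at 16.9%. As a description across the 18 sites, which share their libraries, Spearman's rho was 0.713 between antibodies 1 and 2, 0.544 between antibodies 1 and 3 and 0.903 between antibodies 2 and 3. Among the 4 sites near a coding TSS, antibody 1 had the lowest summed score at Sema7a, Ephb2 and Plxna4, and the highest at Ephb1. At Plxna4 this rests on the sum over 2 peaks of antibody 3, the higher of which scored 61.1. Over the 528 shared sites near a coding TSS, antibody 1 was the lowest at 32.0% and the highest at 4.73%.

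**Figure D3:**
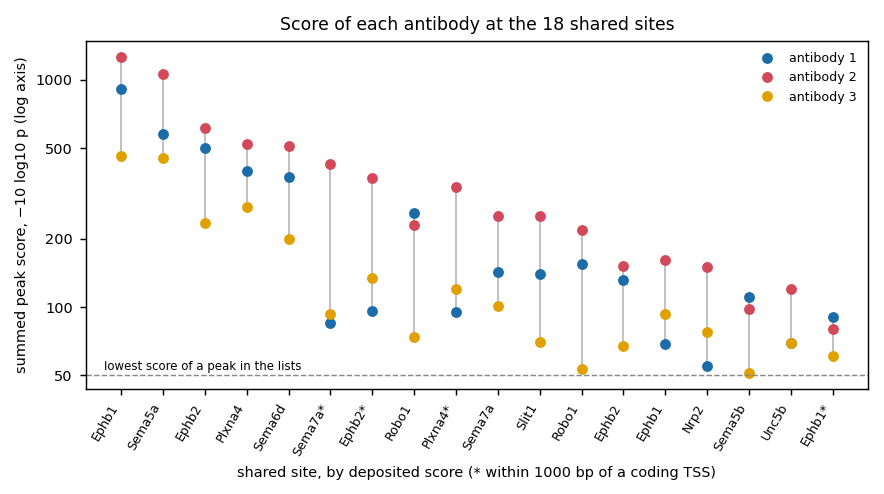
Summed peak score of each antibody (minus 10 times log10 of p, log axis) at the 18 shared sites, ordered by deposited score; asterisks mark sites within 1000 bp of the TSS of a coding transcript, and the dashed line marks 50, the lowest score of a peak. Antibody 2 is the highest at 15 sites, and at the Sema7a, Ephb2 and Plxna4 promoters the summed score of antibody 1 lies below that of antibody 3.

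Most sites lay in introns or exons. By the midpoint, 10 of 18 were intronic (55.6%, Wilson interval 33.7 to 75.4), 5 were within 1000 bp of a TSS (27.8%, 12.5 to 50.9), 2 were exonic and 1 was intergenic. Among the 1459 shared sites that lie in the window of any protein-coding gene, 44.8% were intronic and 41.6% were at promoters, and both shares lie inside these intervals. Counted by gene, a shared site within 1000 bp of a TSS of the gene itself was present at 4 of 53 genes (7.55%, 2.97 to 17.9), namely Ephb1, Ephb2, Plxna4 and Sema7a, against 2.81% of all protein-coding genes. For this count no share from genes of similar length was available, so the part of gene length was not tested. The midpoints of the 5 highest scoring sites lay between 79488 and 434509 bp from the 5′ end of their gene. Other annotated transcripts start closer to some of them, 773 bp away at Plxna4, which is counted above as a promoter for that reason, and 4895 bp away at Ephb2.

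**Figure D4:**
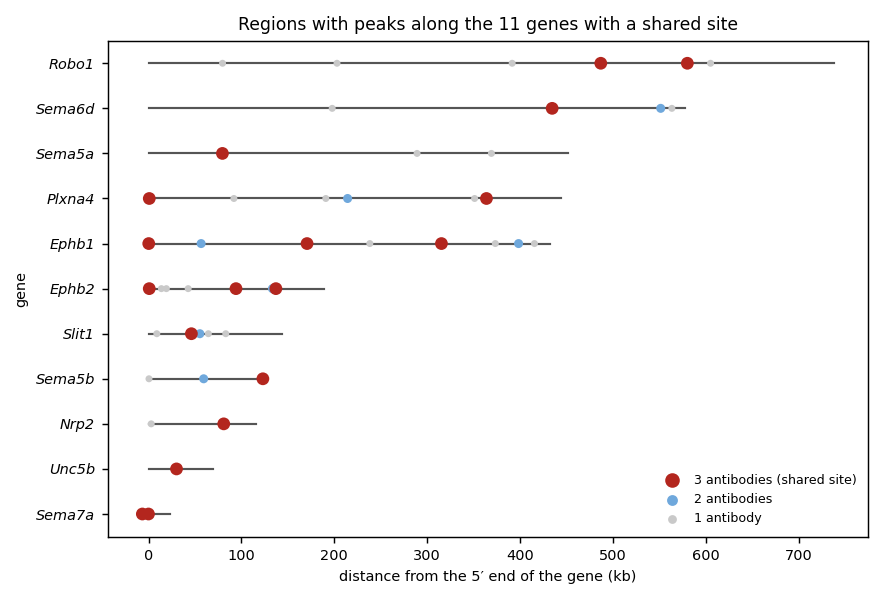
Regions with peaks along the 11 genes that have a shared site, by distance from the 5′ end of the gene in kb; each line spans the gene, red points are regions of 3 antibodies, blue of 2 and grey of 1. In Ephb1, Ephb2 and Plxna4 a shared site lies at the start and the highest scoring site lies 315309, 137053 and 363766 bp from the start, whereas Sema5a and Sema6d have a single shared site inside the gene.

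Below the level of shared sites, the 3 lists together gave 108 merged regions in the windows of the guidance genes. Antibody 2 alone accounted for 55 of them (50.9%, Wilson interval 41.6 to 60.2), beside 55.4% of the regions in the windows of all protein-coding genes. All 3 antibodies met in 18 (16.7%, 10.8 to 24.8, beside 15.7%), antibodies 1 and 2 in another 18 (16.7%, beside 14.7%), and antibodies 2 and 3 in 4 (3.7%, beside 4.12%). No region held antibodies 1 and 3 without antibody 2, a combination that made up 0.225% of the regions at all genes. The shares of antibody 2 alone and of all 3 antibodies among all genes both lie inside these intervals.

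Within 1000 bp of a TSS of a guidance gene there were 30 of the 108 regions (27.8%, Wilson interval 20.2 to 36.9), at 21 genes. Of the 55 regions of antibody 2 alone 19 lay there (34.5%, 23.4 to 47.7), at 14 genes, and of the 9 regions of antibody 1 alone none did (0%, 0 to 29.9). Of the 9323 regions in the windows of all protein-coding genes, 48.0% lay within 1000 bp of a TSS of such a gene, and so did 56.7% of the regions of antibody 2 alone and 17.6% of those of antibody 1 alone. The first 2 of these shares lie above the intervals of the guidance genes and the last lies inside. The guidance genes are longer than most genes and only their own TSSs were counted, and the part of either in this was not tested. Antibody 2 alone at a promoter was found for example at Robo2 (124.29, 59 bp from a TSS), at Plxna3 (167.39 at 188 bp) and at Epha7 (139.71 at 461 bp). Such regions rest on 1 library and have no replicate.

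E-boxes were denser in the middle of the sites than beside them. The central 200 bp of the 18 sites held 2.22 E-boxes on average, and windows of the same length 2000 bp away held 1.22, a ratio of 1.82 (95% interval 1.19 to 2.78 from the counts of 40 and 44 motifs). Over all shared sites the means were 2.45 and 1.15, a ratio of 2.13, which lies inside that interval. The interval treats each motif as independent, although several often lay in the same site, so it may be too narrow. The middle held more than the mean of its flanks at 11 sites, as many at 2 and fewer at 5. At 4 sites there was none, compared with 219 of all 2071 sites.

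E-boxes were counted separately near the starts of genes, where there were few sites. The 4 sites within 1000 bp of a coding TSS held 2 E-boxes in all, 0.5 per site beside 1.62 in their flanks, with a GC content of 64.5 to 73.5%. The other 14 held 38, or 2.71 per site, beside 1.11 in their flanks, with a GC content of 42.5 to 62.0%. Over all shared sites the means were 1.54 near a coding TSS, beside 1.15 in the flanks, and 2.76 elsewhere, also beside 1.15. The part of GC content in this was not tested.

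The form CAGATG, read with its reverse complement CATCTG, was the most frequent. It occurred 17 times, in 10 of the 18 sites (55.6%, beside 54.7% of all shared sites and 16.0% of all flanking windows), and 5 times in the 36 flanking windows. CAGCTG occurred 9 times in 6 sites (33.3%, beside 42.0% and 9.46%). As printed above, CAGATG made up all E-boxes of Sema5a and 4 of the 6 of Nrp2, whereas those of Unc5b were CAGCTG and CAGATG. A motif in the reference is a description of the sequence and does not show where NEUROD2 binds.

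**Figure D5:**
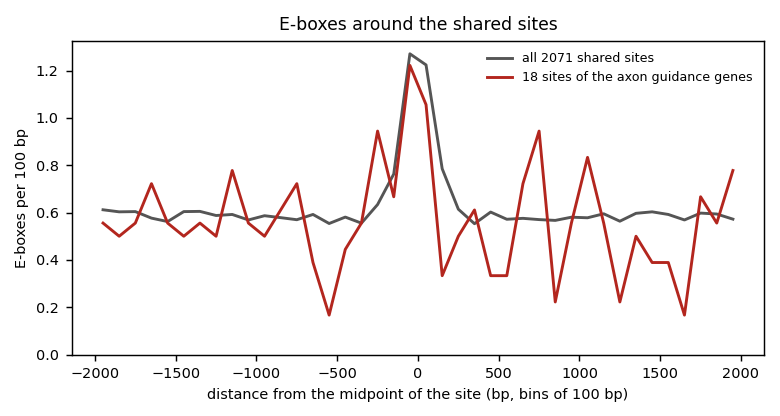
E-boxes (CANNTG) per 100 bp against distance from the midpoint of the site in bp, in bins of 100 bp, for the 18 sites of the guidance genes and for all 2071 shared sites. Both lines are highest in the bins next to the midpoint, where the 18 sites reach 1.22 per 100 bp, and the line of the 18 sites is uneven because each bin holds few motifs.

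Other genes of axon guidance were counted in the same way. Of 18 further genes of the same families, 4 had a shared site (22.2%, Wilson interval 9.0 to 45.2), beside 1.37 at the share of genes of similar length (7.64%) and 7.49% of all protein-coding genes. Both of these shares lie a little below the interval. Genes of a family are not independent and the list was chosen with earlier results known, so this is a description only. Most of these genes are short, with a median of 15.1 kb, and those with a site were Sema6b with 2 sites and Plxnc1, Sema3b and Plxnb2 with 1 each. Antibody 3 gave only 50.5 at Sema3b and 67.61 at Plxnb2, below the stricter score of 100. At the sites of Sema6b and Plxnc1 every antibody gave more than 100. Of 48 genes of other cues, coreceptors and effectors, 11 had a site (22.9%, 13.3 to 36.5), beside 7.14 (14.9%), a share inside the interval. Their highest score was 1546.65 (rank 188) at the promoter of Fyn, a kinase downstream of several guidance receptors, and Dscam, an adhesion receptor that also binds netrin, held 3 intronic sites (both named after their values were seen). None of these genes had a site among the 100 highest scores, in which Ephb1 was the only guidance gene.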

How the data were processed

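Peak lists of 3 NEUROD2 ChIP-Seq libraries from mouse cortex were analysed. The authors mapped reads to mm10 with Bowtie, ran MACS on each antibody's library with that of the GFP antibody as control, and listed as binding sites the regions where the peaks of all antibodies overlapped. The deposited score of a peak is minus 10 times log10 of its p, and the deposited score of a site is the sum over its peaks. At the 18 sites described here it equalled that sum within 0.02, and the limits were those of the merged peaks. A GFP or input value per gene was not analysed here, and the depth of the libraries is unknown from peak lists.

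Gene bodies were taken from GENCODE M21 (GRCm38), extended by 10 kb, and an overlap of 1 bp was counted. For each gene, the share with a site among the 200 protein-coding genes closest in rank of length, leaving out the guidance genes, was added up over the genes. Midpoints were assigned to promoters (within 1000 bp of any annotated TSS), then exons, introns or intergenic sequence. E-boxes were searched as CANNTG in the middle 200 bp of a site and in windows 2000 bp beyond its edges. Annotated UTR sequence is not printed. Shares carry 95% Wilson intervals, which cover counting error only. No p was computed, since the genes and the lists, although defined by name, were chosen with earlier results of these data known.

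All 53 genes were named, those with a shared site with the score and place of each site, the 10 highest sites and those within 1000 bp of a TSS with the score of each antibody, and genes with peaks of 2 antibodies with those scores. Alternatives changed the window, the score threshold, the TSSs, the number of genes of similar length, the ranking and the antibodies used. The counting was tested on simulated data. The scripts ran in Python 3.11.15 with pandas 2.3.3, numpy 2.4.6, pysam 0.24.0, scipy 1.17.1 and matplotlib 3.10.9. The other experiments of the study were not analysed here.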

Additional observations from a re-analysis of the deposited data

How the results depend on the processing

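Of 51 values recomputed under alternatives, 44 stayed within 1.5 times the reported count or within the error of the reported value, and 7 moved further. When every peak had to score at least 100, 6 genes kept a shared site (Ephb1, Ephb2, Plxna4, Sema5a, Sema6d and Sema7a), beside 4.93 from genes of similar length, and Nrp2, Robo1, Sema5b, Slit1 and Unc5b lost theirs. At that threshold the genes with a peak fell from 26 to 11 for antibody 1 and from 15 to 6 for antibody 3. No share of other genes stands beside these falls, so they need not be particular to the guidance genes. Leaving out each antibody in turn gave 11 to 21 genes with a site, beside 9.3 to 14.5 from genes of similar length. The count of 21 came without antibody 3, where the share of genes of similar length (27.3%) lay just below the interval of the observed share (27.6 to 53.1) and no longer inside it, and added Efna3, Efnb1, Epha4, Epha7, Ephb3, Ntng2, Plxna2, Plxnd1, Sema3f and Slit3. Ranked by antibody 1 alone, the median rank of the sites was 1297.0. With a window of 50 kb the observed 12 genes stood beside 12.5 from genes of similar length, so that no excess remained. Counting each site for the closest TSS gave 12 genes beside 9.48, the latter computed by an alternative chosen after seeing the data. No paired analysis was possible because each antibody has 1 library and the GFP and input libraries were not analysed here. Peaks below the authors' threshold cannot be seen in these lists, and a gene without a peak may still be bound. A window of 10 kb leaves out more distant elements, and a site within it need not act on the gene.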
